A study of Mus musculus with 14 samples.

Results

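The DNA replication genes described here are 43 genes that load, start and run the replication fork or supply it with nucleotides. They were taken from a list of gene names, and each was read from its brightest probe set by mean over 14 arrays. All 43 were measured, of 19935 genes in all. Fibroblasts of ICR mouse embryos were used, grown in embryonic stem cell medium, from which feeder cells had been removed. Fibroblasts that received GFP alone were the outer control (1 array at day 6 and 1 at day 10). Fibroblasts that received SKO with an empty Flag vector (SKO+Flag), SKO with HDAC7 (SKO+HDAC7) or SKO with MEF2C (SKO+MEF2C) were lysed at the same days, with 2 arrays per vector and day. SKO, which all 3 of those groups carry, is not spelled out in the labels; it is a common short form for Sox2, Klf4 and Oct4, the reprogramming factors. The labels number the replicates as experiments without calling them separate cultures, so the p-values rest on the spread between arrays alone, and that spread may be technical. The labels give neither the promoter that drives the added genes nor the share of cells that took them up.

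Replication starts when the origin recognition complex, Cdc6 and Cdt1 load the Mcm2 to Mcm7 ring, the core of the replicative helicase, onto DNA in G1. Cdc45 and the GINS complex then switch that ring on, polymerase alpha-primase lays primers, polymerases delta and epsilon copy the strands behind the PCNA clamp, and ribonucleotide reductase and its partners supply the nucleotides. Many of these genes are transcribed as cells approach S phase, when E2F factors are freed from RB proteins, so their mRNA is widely read as a sign of proliferating cells.

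The labels were checked on the added genes. Hdac7 lay between 11.16 and 11.38 on the log2 scale on SKO+HDAC7 arrays and between 6.78 and 7.44 on all others. Mef2c lay between 9.48 and 9.93 on SKO+MEF2C arrays and between 6.31 and 6.81 on all others. Pou5f1, which encodes Oct4, lay between 11.70 and 12.10 with SKO and at 5.24 and 5.18 with GFP. Sox2 lay between 5.04 and 5.37 with SKO and at 4.93 and 5.27 with GFP. Klf4 lay between 8.80 and 9.18 with SKO and at 8.93 and 8.66 with GFP. The probe sets of Sox2 and Klf4 thus do not show these factors as added, and of the SKO factors only Oct4 was seen. Fibroblast markers were above their array's median on all 14 arrays (10 of 10), and pluripotent cell markers below it (8 of 8, Pou5f1 not among them). Of the replication genes, 38 lay above the median over genes on all 14 arrays. Orc1 lay below it on all 14, Gmnn on 12, Mcm8 and Gins1 on 10 each and Ccne2 on 6, so the levels of these 5 are not shown to be above background there.

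Promoter sequences are shown for 5 members because the choice of genes used no sequence. RefSeq windows of 250 bases before to 50 after the start (GRCm38.p6) were found for 34 of the 43 members. An E2F-type site, spelled TTTCCCGC, TTTCGCGC, TTTGCCGC or TTTGGCGC on either strand, was in the windows of 13 of them (38.2%). The same letters were in 2.6% of the 27025 genes with a window and in 3.48% of the 15612 genes that were also measured here. The 13 were Orc1, Cdc6, Cdt1, Mcm3, Mcm5, Mcm6, Mcm7, Mcm8, Gins3, Pola1, Pold1, Rfc3 and Lig1. A CCAAT box (CCAAT on either strand) was in 20 members (58.8%) and in 41.7% of measured genes. The CHR motif, TTTGAA on either strand, was in 4 members (11.8%) and in 17.3% of measured genes. The E2F-type site overlapped a CCAAT box in 1 window, that of Mcm7. Capitals mark the E2F-type site in the first 3 sequences, where overlapping sites on opposite strands form 1 run, and the CCAAT box in the last 2. All run 5′ to 3′ on the gene's strand. Mcm6 (chr1:128359706-128359955, minus strand) and Mcm5 (chr8:75109259-75109467, plus strand) are helicase subunits with a site, and the last 41 bases before the Mcm5 start were left out. Rfc3 (chr5:151651209-151651458, minus strand) has a site and passed the test in no comparison below. Rrm1 (chr7:102441445-102441694, plus strand) and Rrm2 (chr12:24708004-24708253, plus strand) have none of the 4 spellings and differed most from GFP.
Mcm6: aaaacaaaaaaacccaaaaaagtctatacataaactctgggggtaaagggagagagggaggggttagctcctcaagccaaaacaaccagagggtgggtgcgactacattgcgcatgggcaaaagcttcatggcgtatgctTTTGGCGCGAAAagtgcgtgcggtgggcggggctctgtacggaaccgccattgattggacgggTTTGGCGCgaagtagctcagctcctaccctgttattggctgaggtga
Mcm5: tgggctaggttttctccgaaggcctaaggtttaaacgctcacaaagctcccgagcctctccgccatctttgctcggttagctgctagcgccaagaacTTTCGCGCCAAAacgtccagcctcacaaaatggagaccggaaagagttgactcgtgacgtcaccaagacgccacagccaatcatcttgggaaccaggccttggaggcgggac
Rfc3: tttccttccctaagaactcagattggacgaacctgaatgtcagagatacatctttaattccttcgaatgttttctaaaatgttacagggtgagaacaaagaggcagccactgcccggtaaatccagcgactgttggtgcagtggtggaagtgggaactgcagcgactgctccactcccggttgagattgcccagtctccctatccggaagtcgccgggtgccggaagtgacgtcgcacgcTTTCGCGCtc
Rrm1: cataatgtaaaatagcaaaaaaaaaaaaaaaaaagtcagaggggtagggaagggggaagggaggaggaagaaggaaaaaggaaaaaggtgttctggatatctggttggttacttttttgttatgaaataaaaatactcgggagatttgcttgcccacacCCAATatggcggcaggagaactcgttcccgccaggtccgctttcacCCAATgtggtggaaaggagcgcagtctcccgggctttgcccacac
Rrm2: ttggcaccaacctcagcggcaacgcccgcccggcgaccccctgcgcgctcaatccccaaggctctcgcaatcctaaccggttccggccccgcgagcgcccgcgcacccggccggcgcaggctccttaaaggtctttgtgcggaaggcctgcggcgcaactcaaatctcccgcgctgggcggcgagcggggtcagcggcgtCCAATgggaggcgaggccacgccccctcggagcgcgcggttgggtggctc
A match is a description of letters in this window, not a measured binding site.

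Most replication genes were higher in SKO+Flag than in GFP. Averaged over the days (4 arrays against 2), 28 of 43 rose and 1 fell, where 17.5% of all genes rose and 18.2% fell. The median difference of the 43 was 0.32 on the log2 scale, and that of all genes was -0.04. By role, 9 of 11 licensing genes rose, 4 of 7 of helicase activation, 2 of 6 primase and polymerase genes, 6 of 9 of the clamp group, 5 of 5 of nucleotide supply, 2 of 2 of chromatin assembly and 0 of 3 of S-phase entry. Calls are at a Benjamini-Hochberg adjusted p under 0.05 in limma over all genes, and differences are given with their standard error. These are bulk samples, so fewer cells of a type and less RNA per cell cannot be told apart.

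Ribonucleotide reductase, which makes deoxyribonucleotides, differed most. Its large subunit Rrm1 lay at 9.27 and 9.16 on the GFP arrays of day 6 and day 10, and in SKO+Flag at 10.52 and 10.39 on day 6, then 10.08 and 10.12 on day 10. The groups were far apart on both days, with a difference of 1.06 ± 0.06, or 2.09-fold (limma adjusted p = 6.7e-08). The small subunit Rrm2 differed by 1.05 ± 0.06 (limma adjusted p = 1.1e-07). Dut, which removes dUTP, lay at 6.89 and 6.78 with GFP and between 7.74 and 7.83 in SKO+Flag. All 4 SKO+Flag arrays were above both GFP arrays, with a difference of 0.93 ± 0.07, or 1.91-fold (limma adjusted p = 1.2e-06). Tk1, thymidine kinase, rose by 0.40 ± 0.09, and Tyms, thymidylate synthase, by 0.28 ± 0.06.

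In the licensing group every member of the Mcm2 to Mcm7 ring rose. Mcm6 lay at 7.90 and 8.01 with GFP and between 8.83 and 8.93 in SKO+Flag. That is 0.93 ± 0.05, or 1.91-fold (limma adjusted p = 8.5e-08), and its promoter is the first printed above. The other ring subunits rose by less, from 0.39 ± 0.06 for Mcm2 and 0.39 ± 0.08 for Mcm4 to 0.57 ± 0.08 for Mcm7. The loaders Cdc6 (0.52 ± 0.09) and Cdt1 (0.27 ± 0.07) rose, as did geminin, the inhibitor of Cdt1 encoded by Gmnn (0.38 ± 0.08). The listed subunits of the origin recognition complex, Orc1 (0.06 ± 0.07) and Orc6 (0.14 ± 0.06), did not pass averaged over the days, although Orc6 passed at day 6.

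Among the genes that switch the helicase on, Mcm10, Cdc45, Gins1 and Gins3 rose. Mcm10, an essential initiation factor, lay at 6.01 and 6.13 with GFP and between 6.45 and 6.65 in SKO+Flag, without overlap (0.49 ± 0.05, limma adjusted p = 8.7e-06). In the GINS complex, Gins1 was at 0.47 ± 0.09 and Gins3 at 0.25 ± 0.07, while Gins4 was at 0.00 ± 0.07 and Gins2 at -0.17 ± 0.07. Mcm8, a relative of the ring subunits, was at 0.04 ± 0.09. Whether these members differ from each other was not tested.

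Of the enzymes that prime and copy DNA, Pole and Pola1 rose. Pole, the catalytic subunit of the leading-strand polymerase epsilon, was at 6.49 and 6.57 with GFP and between 7.05 and 7.21 in SKO+Flag (0.57 ± 0.07, limma adjusted p = 5.9e-05). Pola1, the catalytic subunit of polymerase alpha, was at 6.52 and 6.50 with GFP, and in SKO+Flag at 7.35 and 7.19 at day 6 and 6.65 and 7.32 at day 10. The day 10 replicates of Pola1 were thus far apart, and its difference of 0.62 ± 0.14 (limma adjusted p = 0.0056) lost its call when the 2 compared vectors were fitted alone. Pold1, the catalytic subunit of polymerase delta, was at -0.07 ± 0.08, and the primase subunits Prim1 and Prim2 were at 0.16 ± 0.07 and 0.12 ± 0.09.

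At the clamp, Pcna lay at 8.65 and 8.84 with GFP and between 9.57 and 9.67 in SKO+Flag. It rose by 0.85 ± 0.06, or 1.81-fold (limma adjusted p = 8.7e-07), and its other probe set was at 0.86. Lig1, the ligase that joins Okazaki fragments, rose by 0.53 ± 0.06, and Fen1, the nuclease that trims them, by 0.39 ± 0.10. Of the clamp loader, Rfc4 (0.32 ± 0.08) and Rfc5 (0.24 ± 0.08) rose, while Rfc2 was at -0.01 ± 0.09 and Rfc3 at 0.03 ± 0.12. Of the single-strand binding protein, Rpa2 rose by 0.38 ± 0.07 and Rpa1 was at 0.10 ± 0.07. The 2 listed subunits of the chromatin assembly factor rose, Chaf1b by 0.27 ± 0.07 and Chaf1a by 0.16 ± 0.06 (limma adjusted p = 0.047). The Chaf1a call was lost without any 1 of 9 arrays. Of the 29 calls in this comparison, 26 were kept whichever of the 12 SKO arrays was left out (the GFP arrays, 1 per day, were not), the other 3 being Chaf1a, Rfc5 and E2f1. Under each of 21 alternatives of processing, given at the end, 23 were kept where they could be fitted. The further losses were Gins3, Pola1 and Chaf1b. Among the 23, Gmnn and Gins1 were too dim for the fit of genes above the median level.

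Of the 3 genes of S-phase entry, 1 fell and 0 rose. E2f1, which encodes an activator of replication genes, was lower by -0.15 ± 0.05 (limma adjusted p = 0.038), with 7.12 and 7.18 with GFP, 7.06 and 7.18 in SKO+Flag at day 6, and 6.90 and 6.85 at day 10. The groups overlapped at day 6, and the call was lost without any 1 of 8 arrays. Cyclin E, the partner of Cdk2 at S-phase entry, did not pass for Ccne1 (-0.14 ± 0.07) or for Ccne2 (0.30 ± 0.14).

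Fibroblast markers moved beside these genes. Their mean level per array was between 10.71 and 11.04 with GFP and between 9.73 and 9.93 in SKO+Flag, and 8 of 10 fell. Epithelial and keratinocyte markers had means between 5.62 and 5.72 with GFP and between 5.84 and 6.59 in SKO+Flag, and 5 of 8 rose. Of these 8, 3 lay below their array's median on all 14 arrays and 1 lay above it on all 14. Mitosis genes, which mark dividing cells by another phase, rose in 19 of 21, with a median of 0.62. The part of cell type or cell cycle composition in the replication gene differences was not tested.

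**Figure D1:**
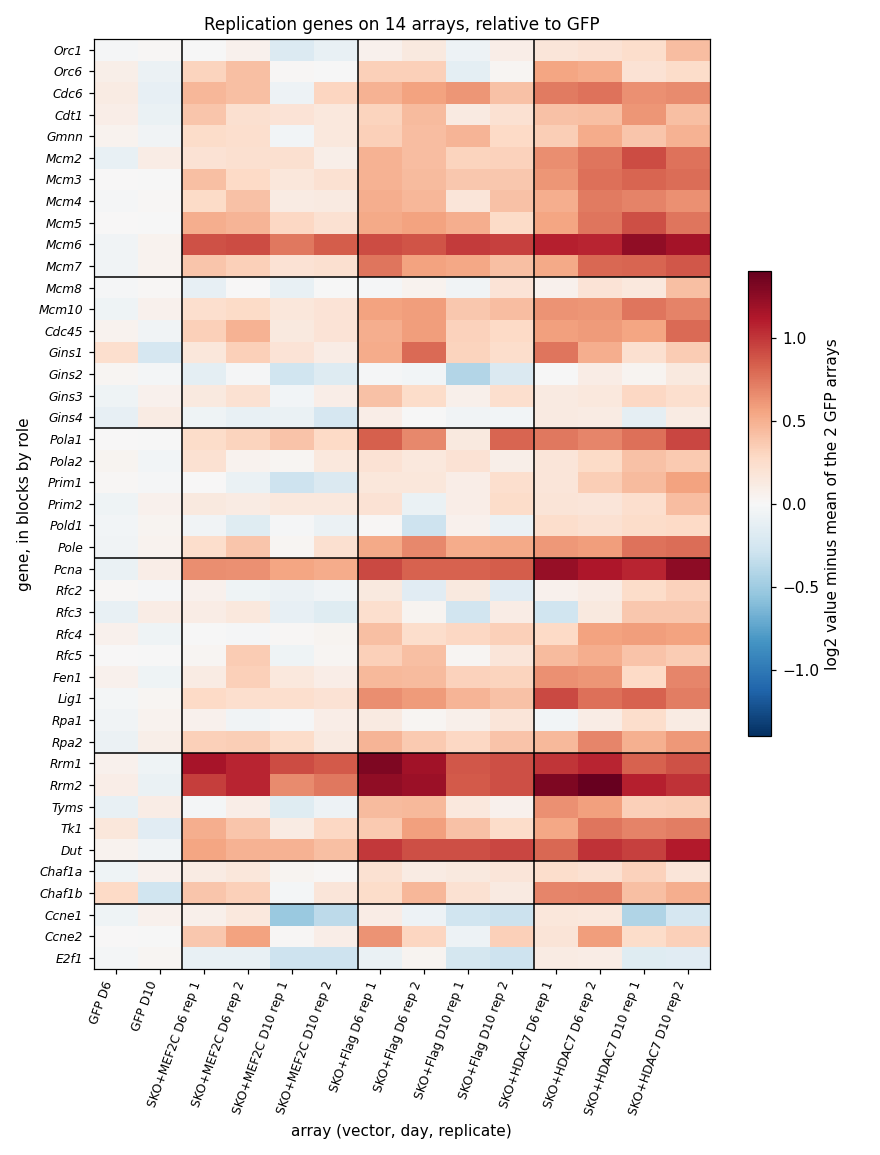
Log2 value of each of 43 replication genes (rows, in blocks by role) on each of 14 arrays (columns, by vector, day and replicate), minus the mean of that gene's 2 GFP arrays. Rrm1, Rrm2, Mcm6, Pcna and Dut are deep red on SKO+Flag and SKO+HDAC7 arrays, and the columns of SKO+MEF2C are paler than those of SKO+HDAC7 for most rows.

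With HDAC7 added to SKO, some replication genes rose above SKO+Flag. HDAC7 is a class IIa histone deacetylase. Averaged over the days (4 arrays against 4), 16 of 43 rose and 0 fell, where 4.83% of all genes rose and 6.06% fell. The median difference was 0.18, and that of all genes 0.02. The rises were largest in number among the licensing genes (7 of 11). Without SKO+Flag day 6 replicate 1, or without SKO+HDAC7 day 6 replicate 2, 10 of 43 rose.

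Mcm2 rose most. In SKO+Flag it was 8.02 and 7.96 on day 6, then 7.85 and 7.86 on day 10, against 8.18 and 8.28, then 8.45 and 8.29, in SKO+HDAC7. All 4 SKO+HDAC7 arrays were above all 4 SKO+Flag arrays, with a difference of 0.38 ± 0.05 (limma adjusted p = 0.00077). Mcm3 rose by 0.32 ± 0.05 (limma adjusted p = 0.0016), from values between 7.62 and 7.73 to values between 7.86 and 8.06. Mcm4, Mcm5 and Mcm6 rose by 0.26 ± 0.07, 0.27 ± 0.06 and 0.21 ± 0.04, and Mcm7, at 0.19 ± 0.07 (limma adjusted p = 0.10), did not pass. Of the origin recognition complex, the listed subunits Orc6 and Orc1 rose, by 0.24 ± 0.05 and 0.21 ± 0.06. Neither had passed between SKO+Flag and GFP averaged over the days. The Orc1 call (limma adjusted p = 0.040) was lost without any 1 of 10 arrays.

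The other 9 rises were in genes that act later or beside the fork. Pold1 lay between 6.66 and 6.73 in SKO+HDAC7 and between 6.16 and 6.51 in SKO+Flag. The 2 groups did not overlap, and the difference was 0.32 ± 0.07, or 1.25-fold (limma adjusted p = 0.0096). Pcna rose by 0.31 ± 0.05 (limma adjusted p = 0.0025), with 9.96, 9.88, 9.81 and 9.9996 on the SKO+HDAC7 arrays, each above every SKO+Flag array. Lig1 rose by 0.28 ± 0.05 and Chaf1b by 0.31 ± 0.06. Mcm10 (0.18 ± 0.04), Gins2 (0.23 ± 0.06), Prim1 (0.22 ± 0.06), Tyms (0.20 ± 0.05) and Tk1 (0.27 ± 0.07) completed the 16.

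The genes that differed most between SKO+Flag and GFP did not all rise again. Rrm1 was at -0.12 ± 0.05 (limma adjusted p = 0.15) and Dut at 0.04 ± 0.06 (limma adjusted p = 0.73), while Rrm2 was at 0.16 ± 0.05 (limma adjusted p = 0.059). In SKO+HDAC7 Rrm1 was 10.22 and 10.29 on day 6, then 10.05 and 10.11 on day 10, so that both day 6 values were below those of SKO+Flag and the day 10 values overlapped. Of the 16 calls, 8 were kept under each of 21 alternatives, which include leaving out each of 12 arrays. They were Orc6, Mcm2, Mcm3, Mcm6, Pold1, Pcna, Lig1 and Chaf1b. Epithelial and keratinocyte markers had array means between 6.12 and 7.26 in SKO+HDAC7, and 5 of 8 rose, while 6 of 10 fibroblast markers fell and 2 rose. Their part in the replication gene differences was not tested.

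With MEF2C added to SKO, some replication genes fell below SKO+Flag. MEF2C is a transcription factor that class IIa deacetylases bind. Averaged over the days (4 arrays against 4), 13 of 43 fell and 0 rose, where 4.82% of all genes fell and 5.49% rose. The median difference was -0.13, and that of all genes 0.01. This comparison and the one with HDAC7 share their SKO+Flag arrays.

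The largest fall was in Dut. Its SKO+MEF2C values were 7.40 and 7.33 at day 6 and 7.33 and 7.26 at day 10, all below the lowest SKO+Flag value of 7.74. The difference was -0.44 ± 0.06 (1.36-fold lower, limma adjusted p = 0.00058). Tyms was 7.02 and 7.14 on day 6, then 6.87 and 6.97 on day 10, below SKO+Flag on both days (-0.32 ± 0.05, limma adjusted p = 0.0012). Rrm2 fell by 0.19 ± 0.05, whereas Rrm1 was at -0.07 ± 0.05 and Tk1 at -0.08 ± 0.07, with the other Tk1 probe set at -0.22. Nucleotide supply thus had 3 of 5 lower.

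The polymerases and their primers also held falls. Pole was 6.78 and 6.92 on day 6, then 6.55 and 6.75 on day 10, in SKO+MEF2C, all below every SKO+Flag array (-0.35 ± 0.06, limma adjusted p = 0.0026). Prim1, the catalytic primase subunit, lay between 6.48 and 6.77, below the lowest SKO+Flag value of 6.86 (-0.31 ± 0.06, limma adjusted p = 0.0055). Pola1 was at -0.30 ± 0.12 and did not pass (limma adjusted p = 0.14). At the clamp and behind it, Rfc4 fell by 0.32 ± 0.06, Lig1 by 0.29 ± 0.05 and Pcna by 0.26 ± 0.05.

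Of the helicase genes, Mcm10 fell by 0.28 ± 0.04 (limma adjusted p = 0.00093), from between 6.45 and 6.65 to between 6.23 and 6.34. Mcm7 fell by 0.28 ± 0.07, Mcm2 by 0.20 ± 0.05, Gmnn by 0.23 ± 0.06 and Gins1 by 0.27 ± 0.08. Mcm6, whose difference from GFP was the largest in the ring, was at -0.08 ± 0.04 (limma adjusted p = 0.29). Of the 13 calls, 8 were kept under each of the 21 alternatives: Mcm10, Prim1, Pole, Pcna, Rfc4, Lig1, Tyms and Dut. The other 5 were lost without at least 1 array. The Gmnn and Gins1 calls (limma adjusted p = 0.043 and 0.046) were lost without any 1 of 8 and 9 arrays. Epithelial and keratinocyte markers had array means between 5.64 and 6.03, and 5 of 8 fell; 3 of 10 fibroblast markers rose and 0 fell. Their part in the replication gene differences was not tested.

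**Figure D2:**
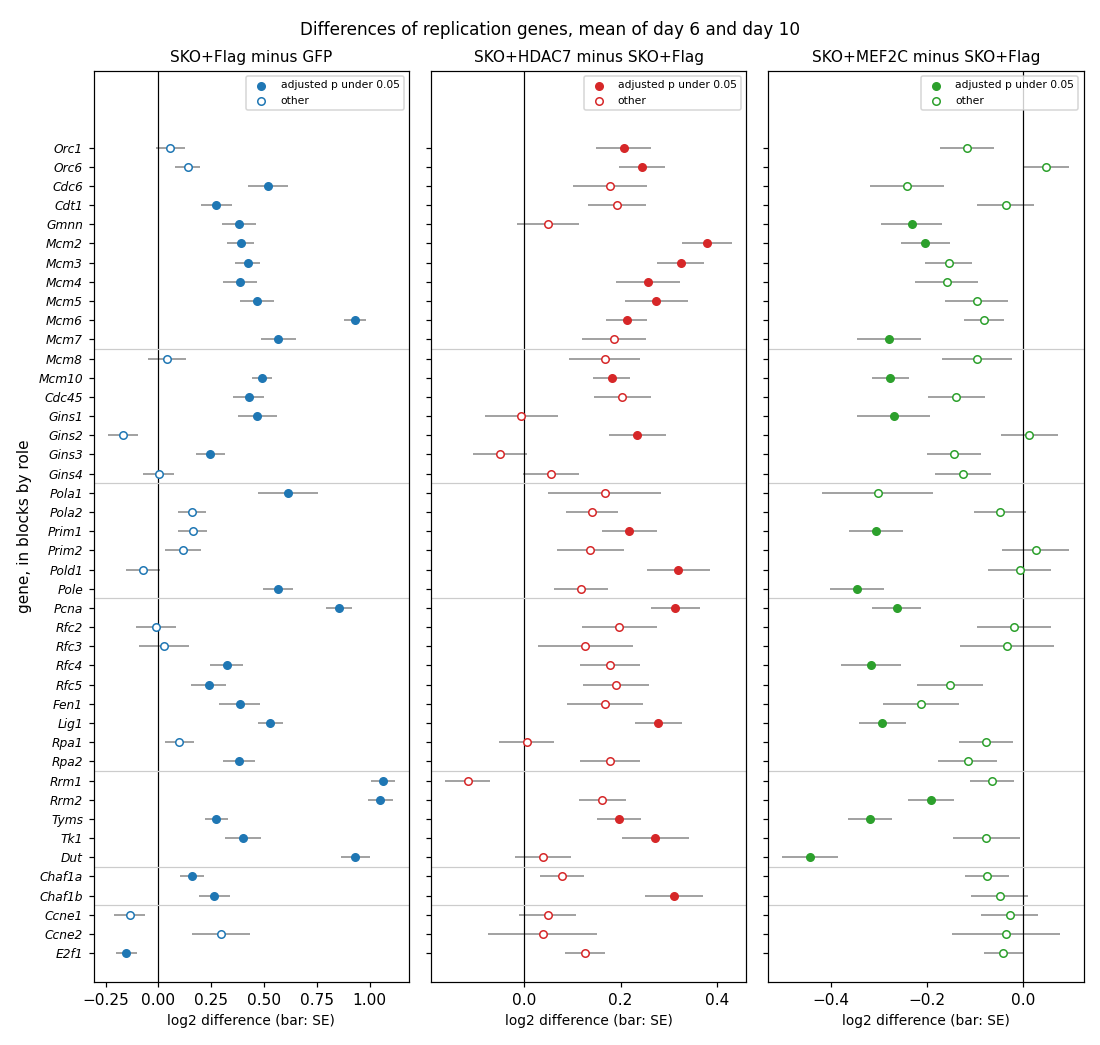
Log2 difference of each of 43 replication genes (rows, in blocks by role) as the mean of both days, for SKO+Flag minus GFP, SKO+HDAC7 minus SKO+Flag and SKO+MEF2C minus SKO+Flag; bars are standard errors, filled points have an adjusted p under 0.05 in limma, and the 3 horizontal scales differ. In the middle panel 16 filled points lie right of 0 and none left of it, and in the right panel 13 lie left of 0 and none right of it.

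Set directly against each other, SKO+HDAC7 and SKO+MEF2C differed in most replication genes. Of 43, 35 were higher with HDAC7 and 0 lower, where 10.3% of all genes were higher and 11.8% lower. The median difference was 0.33, and that of all genes 0.01. All 11 licensing genes were higher, as were 6 of 7 helicase activation genes, 5 of 6 primase and polymerase genes, 6 of 9 genes of the clamp group and both chromatin assembly genes.

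Mcm2 differed most, by 0.58 ± 0.05 (limma adjusted p = 1.0e-05). Its SKO+MEF2C values ran from 7.62 to 7.76 and its SKO+HDAC7 values from 8.18 to 8.45. Pcna differed by 0.58 ± 0.05, from between 9.26 and 9.40 to between 9.81 and 9.9996 (limma adjusted p = 1.1e-05), and Lig1 by 0.57 ± 0.05, from between 7.66 and 7.74 to between 8.17 and 8.39 (limma adjusted p = 8.3e-06). None of these 3 genes had overlapping groups on either day. Other genes named above were Prim1 at 0.53 ± 0.06, Tyms at 0.52 ± 0.05, Rfc4 at 0.50 ± 0.06, Dut at 0.48 ± 0.06 and Cdc6 at 0.42 ± 0.08.

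The 8 genes that did not pass were Gins3, Prim2, Rfc2, Rfc3, Rpa1, Rrm1, Ccne1 and Ccne2. Rrm1, at -0.05 ± 0.05 (limma adjusted p = 0.53), was the only member with a value below 0. Rfc2, Rfc3, Rpa1 and Ccne2 passed in none of the 18 comparisons made. On both days every SKO+HDAC7 array was above every SKO+MEF2C array of its day for 34 members (13.4% of all genes) and below for 0 (13.9%). The highest mean over the 4 vectors was that of SKO+HDAC7 for 38 members, against 26% of all genes. Of the 35 calls, 26 were kept under each of the 21 alternatives where they could be fitted. Among the 26, Orc1 and Gmnn were too dim for the fit of genes above the median level. Fibroblast markers were lower with HDAC7 in 7 of 10 and higher in 2, and epithelial and keratinocyte markers higher in 5 of 8. Mitosis genes were higher in 18 of 21, with a median of 0.37. Their part in the replication gene differences was not tested.

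**Figure D3:**
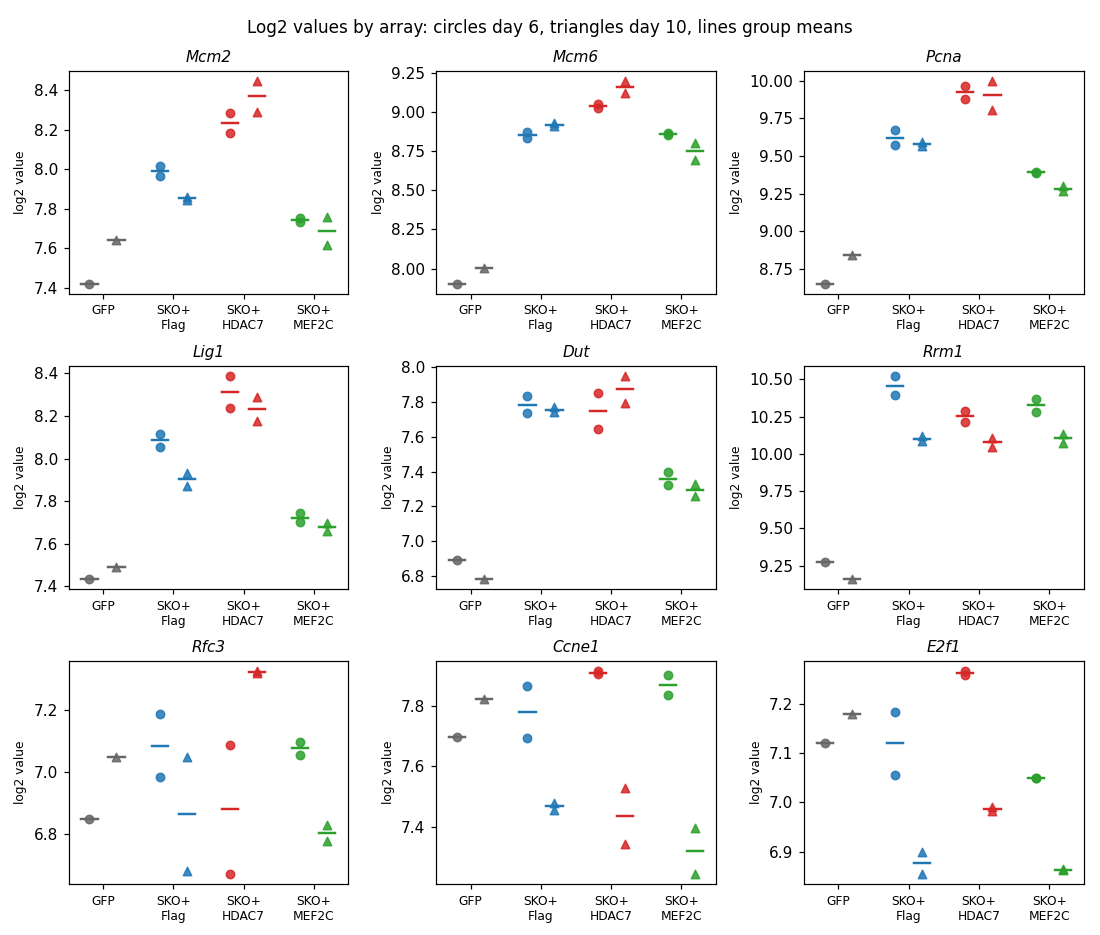
Log2 values of 9 replication genes by vector (horizontal axis), with 1 point per array (circles day 6, triangles day 10) and a line at each group mean; the vertical scales differ and do not start at 0. Mcm2, Pcna and Lig1 are highest with SKO+HDAC7, and SKO+MEF2C lies below SKO+Flag, whereas Dut is close in SKO+Flag and SKO+HDAC7 and Ccne1 separates by day in the SKO groups.

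Replication genes were also compared with GFP for the other vectors. With SKO+HDAC7, 34 of 43 rose over GFP and 0 fell (17.5% and 15.9% of all genes), with a median of 0.47. With SKO+MEF2C, 19 rose and 1 fell (16.6% and 14.6% of all genes), with a median of 0.19, and the 1 lower gene was E2f1 at -0.19. These comparisons share the 2 GFP arrays. Of the 34 calls with SKO+HDAC7, 31 were kept under each of the 21 alternatives where they could be fitted. Among the 31, Orc1, Gmnn and Gins1 were too dim for the fit of genes above the median level. Of the 20 calls with SKO+MEF2C, 10 were kept under each of the 21 alternatives.

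Few members passed the test between days, and those that did fell. From day 6 to day 10, 6 of 43 fell in SKO+Flag, 5 in SKO+HDAC7 and 3 in SKO+MEF2C, where 4.33%, 6.7% and 1.23% of all genes fell. None of the 43 rose with any of these vectors, where 3.75%, 7.86% and 1.85% of all genes did. The members that fell were Orc6, Rrm1, Rrm2, Tyms, Ccne1 and E2f1 in SKO+Flag, the same without Rrm1 in SKO+HDAC7, and Orc6, Rrm2 and Ccne1 in SKO+MEF2C. On the GFP arrays, 1 per day, the median change of the 43 was -0.01, with 21 above 0 and 22 below. In SKO+Flag it was -0.14 (7 above 0, 36 below), in SKO+HDAC7 0.06 (27 above, 16 below) and in SKO+MEF2C -0.15 (6 above, 37 below). Markers also moved with the day: of 10 fibroblast markers 6 fell and 2 rose in SKO+Flag, 7 fell and 1 rose in SKO+HDAC7, and 1 fell in SKO+MEF2C. Of 8 epithelial and keratinocyte markers, 5, 6 and 2 rose with these vectors and 0 fell, by up to 2.36, 2.95 and 1.21. Their part in the changes of replication genes was not tested.

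Ccne1 fell by 0.31 ± 0.08 in SKO+Flag, by 0.47 ± 0.08 in SKO+HDAC7 and by 0.55 ± 0.08 in SKO+MEF2C (limma adjusted p = 0.044, 0.0031 and 0.0045). The call in SKO+Flag was lost without any 1 of 7 arrays. Its values in SKO+HDAC7 were 7.91 and 7.90 at day 6 and 7.34 and 7.53 at day 10, and on the GFP arrays 7.70 and 7.82. The SKO arrays of day 10 were below those of day 6 with each vector, and the GFP array of day 10 was not. Orc6 fell by 0.39 ± 0.07, 0.30 ± 0.07 and 0.36 ± 0.07 with the same 3 vectors (limma adjusted p = 0.0043, 0.012 and 0.013), and Rrm2 by 0.34, 0.33 and 0.32. Without SKO+Flag day 10 replicate 1 the count in SKO+Flag was 3. In SKO+HDAC7 the count was 2 without day 6 replicate 1 or day 10 replicate 1, and 3 without day 10 replicate 2, where Rrm2, Tyms and E2f1 lost their calls. In SKO+MEF2C it was 0 without day 6 replicate 2 or day 10 replicate 1.

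Split by day, SKO+Flag was above GFP for 23 members at day 6 (13.2% of all genes) and for 18 at day 10 (13.7%), where Ccne1 (-0.36) and E2f1 (-0.30) were lower (13.2%). At day 6, 0 of 43 were lower (10.8% of all genes). The median difference was 0.40 at day 6 and 0.26 at day 10. Tyms alone passed the test of the difference between days (change -0.56 ± 0.11, limma adjusted p = 0.016, 1 of 43 against 3.16% of all genes lower and 0 against 1.9% higher). Its SKO+Flag values were 7.49 and 7.50 at day 6 and 7.19 and 7.11 at day 10, and its GFP values 6.94 and 7.15. The SKO+Flag arrays were thus well above GFP at day 6 and on either side of it at day 10.

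With HDAC7, 1 member (Pcna, 0.30 ± 0.07, limma adjusted p = 0.042) rose over SKO+Flag at day 6 and 0 fell, where 1.82% and 2.76% of all genes did. At day 10, 16 rose and 0 fell, where 3.33% and 3.95% did. The median difference was 0.10 at day 6 and 0.27 at day 10, and 36 of 43 members had the larger value at day 10. These 43 values are not independent, since all share the same SKO+Flag arrays. Over all genes, the day 10 replicates of SKO+Flag lay furthest apart of the SKO groups (standard deviation of the difference 0.17). The difference between days itself passed for 0 of 43 (0.125% of all genes in either direction). Rfc3 had a change of direction in its values, from 7.19 and 6.98 in SKO+Flag against 6.67 and 7.09 in SKO+HDAC7 at day 6 to 6.68 and 7.05 against 7.33 and 7.32 at day 10. Its day 6 groups overlapped, and it passed on neither day. The day 10 count rests on single arrays: it was 6 without SKO+Flag day 10 replicate 1, and 7 or 6 without SKO+HDAC7 day 10 replicate 1 or 2. Fitted to the compared groups alone it was 2. At day 6 the count was 0 to 3 as arrays were left out, and 0 without any 1 of the SKO+HDAC7 arrays of that day.

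With MEF2C, 4 members fell at day 6 (Mcm10, Lig1, Tyms and Dut) and 5 at day 10 (Mcm10, Prim1, Pole, Pcna and Dut), where 1.77% and 3% of all genes fell. None rose on either day, where 1.33% and 4% did. Dut was at -0.42 ± 0.08 at day 6. The median differences were -0.12 and -0.14, and the difference between days passed for 0 of 43 (0.0853% of all genes). Without SKO+Flag day 6 replicate 1 or 2 the day 6 count was 1, and without SKO+MEF2C day 6 replicate 1 or 2 it was 0 or 1. At day 10 it was 1 or 3 without SKO+MEF2C day 10 replicate 1 or 2.

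**Figure D4:**
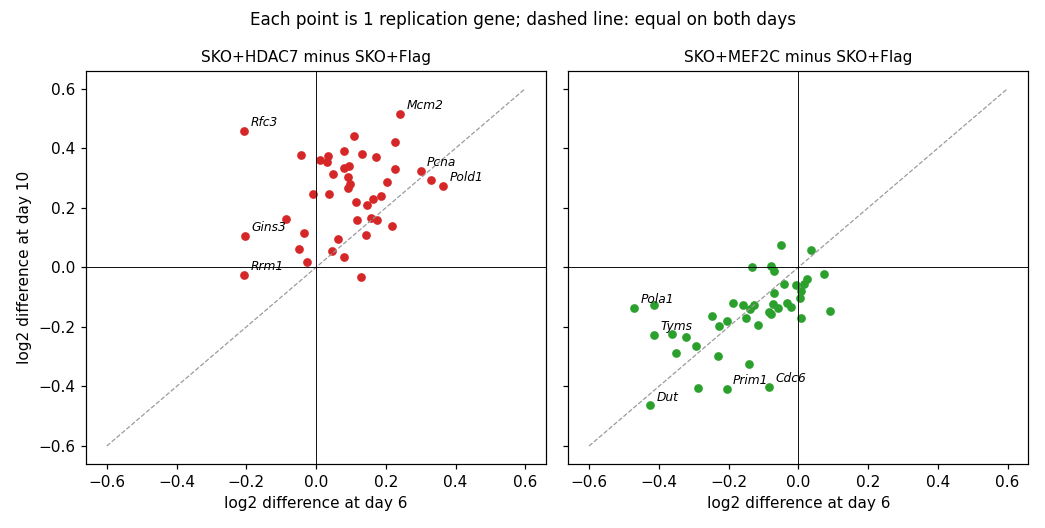
Log2 difference from SKO+Flag at day 6 (horizontal axis) and day 10 (vertical axis) of each of 43 replication genes, for SKO+HDAC7 and SKO+MEF2C; the dashed line marks equal values. Of the SKO+HDAC7 points 36 lie above the line, while the SKO+MEF2C points lie on both sides of it (18 above, 25 below).

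Genes of the same pathway outside the 43 were counted in a list of their own. Of 42 measured genes of replication and its control, 19 rose and 1 fell between GFP and SKO+Flag (17.5% and 18.2% of all genes). The kinase activator Dbf4 was at 0.93, the histone chaperone Asf1b at 0.78, the PCNA-binding Pclaf at 0.70 and Uhrf1, which maintains DNA methylation behind the fork, at 0.63. With HDAC7, 7 rose over SKO+Flag and 0 fell (4.83% and 6.06% of all genes), among them Uhrf1 (0.44), the checkpoint scaffold Topbp1 (0.31), the kinase Cdc7 (0.28) and Pole2 (0.28). In SKO+Flag, Cdc7 (5.80 to 6.02) and Pole2 (5.73 to 6.05) lay around the array medians over genes (5.91 to 5.98). Their levels there are thus not shown to be above background. With MEF2C, 0 rose and 10 fell (5.49% and 4.82%), led by Pclaf (-0.55), the helicase activation factor Ticrr (-0.38), Rpa3 (-0.37) and Uhrf1 (-0.33).

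Among the members with an E2F-type site in the window, 9 of 13 rose between GFP and SKO+Flag (17.5% of all genes), with a median of 0.42. Of the 21 members with a window but none of the 4 spellings, 15 rose and 1 fell (18.2% of all genes), with a median of 0.32. With HDAC7, 6 of 13 and 8 of 21 rose over SKO+Flag (4.83% of all genes), and with MEF2C 2 of 13 and 8 of 21 fell (4.82%). Whether the 2 sets differ was not tested.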

How the data were processed

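RNA of 8 groups (vector by day) was read on 14 Affymetrix whole-transcript arrays. The deposited values are log2 values per probe set; the submitters' processing notes name RMA and Partek and give no versions, and RMA shrinks differences of dim probe sets. No further normalization or filter was applied. The array medians lay between 5.68 and 5.76, and precision is limited by how few arrays there are. Of 28815 probe sets, 21780 had 1 gene symbol in the platform annotation, 1605 had several and 5430 none here; 21689 symbols matched RefSeq (GRCm38.p6) by Entrez ID, 91 did not, and 0 changed. Of several probe sets for a gene (998 genes) the one with the highest mean was kept, leaving 19935 genes. The build behind the probe sets is not given in the sources used here.

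Tests used limma 3.58.1 in R 4.3.3 (lmFit, eBayes), with 1 group-means model over all arrays, with 6 residual and 4.71 prior degrees of freedom, tested on simulated data. The GFP groups, with 1 array per day, are assumed to vary like the others. Calls needed an adjusted p under 0.05 (Benjamini-Hochberg, over all genes). Replicate arrays correlated at 0.994 to 0.997 and none were identical. The members and the gene lists were chosen with earlier results of these data known. Genes given array by array were, by rule, the largest changes in each role, comparison and day; others are named to account for the 43. Alternatives were another prior, array weights, a fit of the compared groups alone, median centring, quantile normalization, the mean over probe sets, genes above the median level, replicate blocks and leaving out each SKO array. Promoter windows were searched on both strands in the RefSeq table.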

Additional observations from a re-analysis of the deposited data

Results flagged for a closer look

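Tyms, which encodes thymidylate synthase, was picked out because its difference between SKO+Flag and GFP itself differed between the days. It was 1 of 43 members, where 3.16% of all genes were called lower and 1.9% higher, so the members were not called more often than other genes. The change from day 6 to day 10 was -0.56 ± 0.11 on the log2 scale (limma adjusted p = 0.016), from 0.55 ± 0.08 at day 6. Only 1 GFP array stands behind each day, 6.94 at day 6 and 7.15 at day 10. The call was kept when any 1 of the 12 SKO arrays was left out; the GFP arrays, 1 per day, were not left out. In all, 0 members passed when the compared groups were fitted alone.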

How the results depend on the processing

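Of 231 member calls in 18 comparisons, recomputed under 21 alternatives where they could be fitted, 4336 of 4834 values kept the call, 498 lost it and 0 turned direction. With the compared groups fitted alone the count of members fell from 20 to 8 (SKO+Flag against GFP, day 10), from 16 to 2 (HDAC7 against Flag, day 10), from 1 to 0 (HDAC7, day 6), from 5 to 1 (MEF2C against Flag, day 10), from 6 to 0 (day 10 against day 6 in SKO+Flag) and from 1 to 0 (change between days of SKO+Flag against GFP); these fits have fewer arrays. For HDAC7 at day 6 the count was 3 with the intensity-dependent prior, quantile normalization or genes above the median level, 2 with the mean over probe sets, and 0 with array weights or median centring. SKO+MEF2C against GFP gave 13 after quantile normalization in place of 20, and MEF2C against Flag at day 10 gave 8 after median centring in place of 5; the cause was not tested. Leaving out 1 SKO array gave 10 to 18 members for HDAC7 against Flag (0 to 3 at day 6, 6 to 18 at day 10), 9 to 13 for MEF2C against Flag (0 to 5 at day 6, 1 to 6 at day 10), 3 to 6, 2 to 7 and 0 to 3 for the day within SKO+Flag, SKO+HDAC7 and SKO+MEF2C, and 1 to 2, 0 to 2 and 0 to 1 for the change between days of SKO against GFP, HDAC7 and MEF2C, where each higher count was without SKO+Flag day 10 replicate 2.

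Over all genes, the compared groups alone called 3012 genes in place of 5359 (SKO+Flag against GFP, day 10), 375 in place of 914 and 501 in place of 1450 (HDAC7, day 6 and day 10), 351 in place of 618 and 502 in place of 1397 (MEF2C), 504 in place of 1610 (day in SKO+Flag) and 206 in place of 1008 (change between days of SKO+Flag against GFP). Array weights called 994 in place of 614 for the day in SKO+MEF2C. The 25 and 17 genes of the changes between days with HDAC7 and MEF2C ranged from 0 to 483 and from 2 to 213 as arrays were left out, from 2 to 69 and from 1 to 45 otherwise. Leaving out 1 SKO array gave 293 to 1266 and 785 to 1484 genes for HDAC7 at day 6 and day 10, 157 to 772 and 691 to 1421 for MEF2C, and 944 to 1905, 1571 to 3367 and 250 to 739 for the day within the 3 SKO vectors. After median centring HDAC7 had 698 higher and 1520 lower genes in place of 963 and 1208 (471 and 931 in place of 663 and 787 at day 10), and MEF2C 863 and 1142 in place of 1094 and 960.

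The differences between replicates, taken by experiment number, correlated from -0.24 to 0.18 between groups, over 0.1 in 4 of 15 pairs of groups. Between groups of the same day they ran from -0.09 (SKO+Flag and SKO+HDAC7, day 6) to 0.18 (SKO+Flag and SKO+MEF2C, day 6). Whether the numbers mark arrays that were paired within a day was not tested. With the number as a replicate block over both days, 29 members passed between SKO+Flag and GFP, 17 with HDAC7, 12 with MEF2C and 34 between HDAC7 and MEF2C. With a block within each day HDAC7 at day 6 had 2 members.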

Other observations

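Regulators of the RB and E2F pathway and of S-phase entry were read from a list of 30 measured genes. Between GFP and SKO+Flag 20 rose and 3 fell (17.5% and 18.2% of all genes). Against SKO+Flag, 5 rose and 2 fell with HDAC7 (4.83% and 6.06%), and 1 rose and 9 fell with MEF2C (5.49% and 4.82%). Rb1, whose protein holds E2F factors in check, lay at 6.66 and 6.02 on the GFP arrays and between 8.48 and 9.07 in SKO+Flag (2.50 ± 0.09, 5.64-fold, limma adjusted p = 2.7e-09). It was lower with HDAC7 than with Flag by -0.46 ± 0.07 (limma adjusted p = 0.0022), with values between 8.14 and 8.68, and at 0.03 ± 0.07 with MEF2C.

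Of the cyclin-dependent kinase inhibitors, Cdkn2b, which encodes p15, lay at 8.62 and 8.10 with GFP, between 7.11 and 7.56 in SKO+Flag, between 6.72 and 7.25 in SKO+HDAC7 and between 7.42 and 7.93 in SKO+MEF2C. It fell by 1.01 ± 0.05 between GFP and SKO+Flag (limma adjusted p = 5.0e-08), was lower with HDAC7 (-0.37 ± 0.04) and was the 1 gene of the list that rose with MEF2C (0.32 ± 0.04). Cdkn1c, which encodes p57, was at 8.08, 8.05, 8.65 and 8.54 in SKO+Flag, at 8.33, 8.49, 9.02 and 9.04 in SKO+HDAC7 and at 7.48, 7.61, 8.27 and 8.14 in SKO+MEF2C, day 6 before day 10. It rose with HDAC7 by 0.39 ± 0.05 and fell with MEF2C by 0.45 ± 0.05. Its GFP arrays lay far apart, at 7.60 and 9.09. The kinase gene Cdk6 rose by 1.17 ± 0.07 between GFP and SKO+Flag and fell by 0.40 ± 0.06 with MEF2C. These genes were chosen after their values were seen.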
